A study of Mus musculus with 4 samples.

Results

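Of the 268 genes on a membrane array for stem cell-related genes, 6 genes linked to fibroblast-like, fibro-adipogenic and stromal cells were described across muscle-derived stem cells (MDSCs) of 4 mouse genotypes. They were the receptor gene Pdgfra, its ligand genes Pdgfa and Pdgfb, the chemokine gene Cxcl12, the collagen gene Col1a1 and the surface antigen gene Thy1. They were chosen by symbol, with the values of these arrays already known, so their levels and ratios are a description and carry no test. Each of the 6 genes had 1 spot on each array.

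The study asked how the loss of myostatin, a secreted inhibitor of muscle growth, affects MDSCs, cells obtained from dissociated muscle by serial replating of the cells that attach late. RNA came from hind limb MDSCs of male wild-type C57BL/6J mice (WT), Mst-/- myostatin knockout mice (Mst KO), 10ScSn-Dmdmdx mice (mdx), which lack full-length dystrophin, and Oct4 transgenic mice carrying a reporter behind the OCT4 promoter, and the sample records give C57BL/6J as the background strain of all 4. The study methods, however, name the mdx mice used as hosts C57BL/6/10ScSn-Dmdmdx and trace the Mst KO line, kept on BL/6, to a Balb/c strain. Strain may thus not have been matched between the arrays. The methods gave an age of 12 to 16 weeks for the WT and Mst KO mice. Replated cells carrying the surface antigen Sca1 were selected with antibody-coated beads. The age of the mdx and Oct4 transgenic mice, the reporter, and the passage of each arrayed culture were not given in the sources used here. All cultures were grown in DMEM with 20% fetal bovine serum until nearly confluent, and the RNA on each array was a pool from 3 flasks of 1 MDSC type, measured on 1 array, so that differences between genotypes and between cultures cannot be told apart.

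PDGFRA is a receptor tyrosine kinase that pairs up and signals when it binds platelet-derived growth factors. PDGF-A acts through this receptor, and PDGF-B binds both this receptor and its relative PDGFRB. In skeletal muscle, PDGFRA marks the fibro-adipogenic progenitors, interstitial cells that support repair after injury and can give rise to fibroblasts and adipocytes. CXCL12 is a chemokine made by stromal cells that attracts cells carrying the receptor CXCR4, and in muscle it is known to act on migrating progenitors. COL1A1 is a chain of type I collagen, the main fibrillar collagen of connective tissue. THY1, also called CD90, is an antigen anchored in the membrane of fibroblasts, mesenchymal stromal cells, neurons and mouse T cells. The array held no spot under the symbol Pdgfrb.

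The promoter-side sequence of Pdgfra and Cxcl12 is shown because these were the 2 genes of the 6 that lay past 2-fold above WT on all 3 other arrays. The 250 bases before the annotated start are given 5′ to 3′ on the strand of the gene, from RefSeq on GRCm38.p6, with GC boxes, GGGCGG or its reverse complement CCGCCC, in capitals.
Pdgfra (chr5:75152001-75152250, plus strand): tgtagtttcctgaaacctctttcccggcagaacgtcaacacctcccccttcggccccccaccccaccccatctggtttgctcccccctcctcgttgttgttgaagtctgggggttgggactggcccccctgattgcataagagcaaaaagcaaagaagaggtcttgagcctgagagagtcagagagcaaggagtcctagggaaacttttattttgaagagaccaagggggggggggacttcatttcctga
Cxcl12 (chr6:117168285-117168534, plus strand): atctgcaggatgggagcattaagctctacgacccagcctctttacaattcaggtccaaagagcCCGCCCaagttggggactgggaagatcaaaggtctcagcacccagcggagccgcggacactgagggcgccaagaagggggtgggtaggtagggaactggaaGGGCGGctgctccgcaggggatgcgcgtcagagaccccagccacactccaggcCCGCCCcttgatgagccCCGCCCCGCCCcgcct
The Cxcl12 sequence held 5 GC boxes on the 2 strands, at -187, -86, -33, -16 and -11 from the start, of which the last 2 overlap by 1 base, and had a GC content of 64.4%. The Pdgfra sequence held 0 and had a GC content of 54.4%. Of 32851 mouse windows of the same length, 32.7% held a GC box, and the median GC content was 52.4%. Neither sequence held the TATA letters TATAAA, found on either strand in 12.4% of the windows, or the letters CCAAT, found in 33.8%. For Pdgfa, 2 annotated starts gave windows with 1 and 2 GC boxes. Such matches describe letters only and show no factor at the site.

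Values are the deposited normalized intensities, in which the lowest spot of an array was set to 0 and each other spot was expressed relative to 1 factor for the array, the average of the spots of middle rank. That factor lay between 297 and 370 on the 4 arrays, between 126 and 136 of the 268 genes were called present on each array, and the lowest present value lay between 0.697 and 0.898. The SD between spots of 1 gene on 1 array was 0.06 on the log2 scale for Gapdh, B2m and Ppia, 3 bright genes with 3 spots each, which gives 0.08 for a ratio of 2 single spots. That spread says nothing of the variation between cultures, and for dim spots it is not known. On arrays of pooled RNA, fewer cells of a type and less RNA per cell cannot be told apart. With 1 array per MDSC type, no ratio had a replicate array and no p value was computed.

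Pdgfra was the most variable of the 6 genes. Its normalized intensity was 2.90 in WT, 19.7 in Mst KO, 37.5 in mdx and 9.56 in Oct4 transgenic MDSCs. The WT array was thus the lowest and the mdx array the highest, and this order of the 4 arrays was the same under 10 of 10 other scalings and backgrounds. Pdgfra was 6.81-fold higher in Mst KO than in WT (log2 ratio 2.77), 13.0-fold higher in mdx (3.70) and 3.30-fold higher in Oct4 transgenic MDSCs (1.72). The gene was present on all 4 arrays, including WT, where the raw spot of 1263 stood over a local background of 418. The raw spot of the other arrays was 7346 over a local background of 1029 in Mst KO, 11793 over 1485 in mdx, and 3049 over 569 in Oct4 transgenic MDSCs. The range of Pdgfra over the 4 arrays, 13.0-fold, ranked 6 among the 149 genes present on at least 1 array, for which the median range was 1.68-fold.

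The ligand genes did not follow the receptor gene. Pdgfa had a normalized intensity of 6.97 in WT, 6.25 in Mst KO, 7.05 in mdx and 13.98 in Oct4 transgenic MDSCs. The Oct4 transgenic array stood alone as the high one, at 2.005-fold above WT (log2 ratio 1.004), 2.24-fold above Mst KO and 1.98-fold above mdx, while the other 3 arrays lay within 1.13-fold of each other. The Oct4 transgenic array was the highest under 10 of 10 alternatives, but its ratio to WT reached 2-fold under 5 of them and was as low as 0.51 on the log2 scale. Of those 5, the 2 floors and the rounded series table only repeat the deposited value. The others were quantile normalization (log2 ratio 1.005) and the local background with scaling to the middle spots (1.14). Pdgfb, at 12.6 in WT, 16.7 in Mst KO, 13.5 in mdx and 13.2 in Oct4 transgenic MDSCs, was the least variable of the 6 genes. Its highest and lowest arrays differed 1.33-fold, a range that ranked 121 among the 149 genes, and the log2 ratios to WT were 0.41 in Mst KO, 0.10 in mdx and 0.06 in Oct4 transgenic MDSCs. The sign of such small ratios followed the scaling, since Pdgfb in Oct4 transgenic MDSCs lay below WT under 5 of 10 alternatives, Pdgfa in Mst KO above WT under 5, and Pdgfa in mdx below WT under 3. The spots of Pdgfa, Pdgfb and Pdgfra lay next to each other on the membrane, and the Pdgfb spot beside Pdgfra did not follow it (raw 4849, 6256, 4363 and 4121 in the order WT, Mst KO, mdx and Oct4 transgenic). The spot on the other side of Pdgfra, Piwil2, was dim but took the same order of arrays as Pdgfra (raw 281, 324, 386 and 291). The part of neighbouring spots in these values was not tested.

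**Figure D1:**
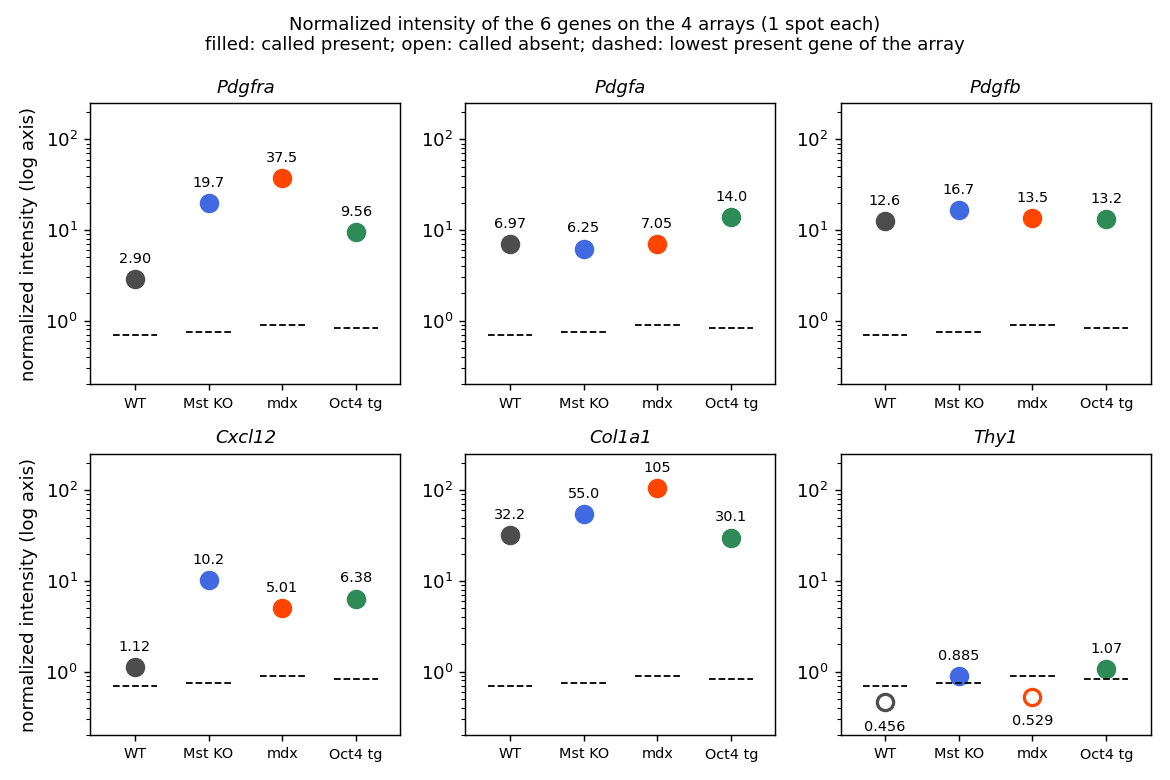
Normalized intensity (log axis) of the 6 genes on the WT, Mst KO, mdx and Oct4 transgenic arrays, 1 spot per point and so without error bars, filled where the gene was called present and open where absent, with dashed lines at the lowest present value of each array. Pdgfra ran from 2.90 in WT to 37.5 in mdx, and Pdgfb kept between 12.6 and 16.7. Thy1 lay above the lowest present value in Mst KO and Oct4 transgenic MDSCs and below it in WT and mdx.

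Cxcl12 was also lowest in WT. Its normalized intensity was 1.12 in WT, 10.2 in Mst KO, 5.01 in mdx and 6.38 in Oct4 transgenic MDSCs, and it was called present on all 4 arrays. The highest array was Mst KO, where Pdgfra came only second to mdx, so the 2 genes shared their lowest array and not their highest. Cxcl12 was 9.13-fold higher than WT in Mst KO (log2 ratio 3.19), 4.47-fold higher in mdx (2.16) and 5.70-fold higher in Oct4 transgenic MDSCs (2.51). Mst KO was the highest and WT the lowest array under 10 of 10 alternatives, and the order of mdx and Oct4 transgenic changed under 4. The WT spot was dim, with a raw intensity of 606 over a local background of 329, against 3899 over 672 in Mst KO, 1728 over 441 in mdx and 2105 over 570 in Oct4 transgenic MDSCs. The folds therefore rested on a WT value not far above the dimmest present gene there, 0.697. The spot of Cdkn2b directly above Cxcl12 on the membrane moved in part with it (raw 432, 3688, 1861 and 895 in the same order of arrays), whereas the spot of its receptor gene Cxcr4 directly to the right stayed between 239 and 325. The spot directly to the left, Ctnnb1, was brighter than Cxcl12 on all 4 arrays (raw 10596, 9663, 9032 and 12291). The part of the neighbouring spots in the Cxcl12 ratios was not tested.

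Col1a1 had a normalized intensity of 32.2 in WT, 55.0 in Mst KO, 105 in mdx and 30.1 in Oct4 transgenic MDSCs. Its high array was mdx, like that of Pdgfra, but its Oct4 transgenic array lay at the level of WT, unlike that of Pdgfra or Cxcl12. The mdx array was 3.25-fold above WT (log2 ratio 1.70), 1.91-fold above Mst KO and 3.48-fold above Oct4 transgenic MDSCs. The Mst KO array lay 1.71-fold above WT (log2 ratio 0.77), short of 2-fold as deposited and past it under 4 of 10 alternatives. The Oct4 transgenic log2 ratio to WT was -0.10, and the alternatives put it between -0.56 and 0.0014. The spots were bright on all 4 arrays, with raw intensities of 12108, 20163, 32624 and 9160 in the order WT, Mst KO, mdx and Oct4 transgenic, each below the brightest spot of its array, which lay between 58174 and 61071.

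Thy1 was dim on all 4 arrays. Its normalized intensity was 0.456 in WT, 0.885 in Mst KO, 0.529 in mdx and 1.07 in Oct4 transgenic MDSCs, and it was called absent in WT and mdx. In mdx, where Pdgfra and Col1a1 were highest, Thy1 was thus not called present. The lowest present value in mdx, 0.898, lay above the Thy1 value called present in Mst KO. Whether Thy1 was lower in mdx than in Mst KO therefore cannot be told. Because Thy1 was absent in both WT and mdx, which of these 2 arrays was the lower cannot be told. The 2 present values lay just above the lowest present value of their arrays (0.753 in Mst KO and 0.828 in Oct4 transgenic) and above the brightest blank spots (0.733 and 0.841). With the WT value replaced by that of the dimmest present gene of the array, Thy1 was at least 1.27-fold higher in Mst KO and at least 1.54-fold higher in Oct4 transgenic MDSCs than in WT, limits that hold for the deposited values only. In WT the raw spot of 361 lay below its own local background of 524. The bright spot of Spp1, the osteopontin gene, stood directly above Thy1 on the membrane, and its raw intensity was 26362 in WT, 7551 in Mst KO, 2338 in mdx and 3829 in Oct4 transgenic MDSCs. The local background of Thy1 took the same order, at 524, 370, 278 and 367. The part of Spp1 in the Thy1 values was not tested.

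**Figure D2:**
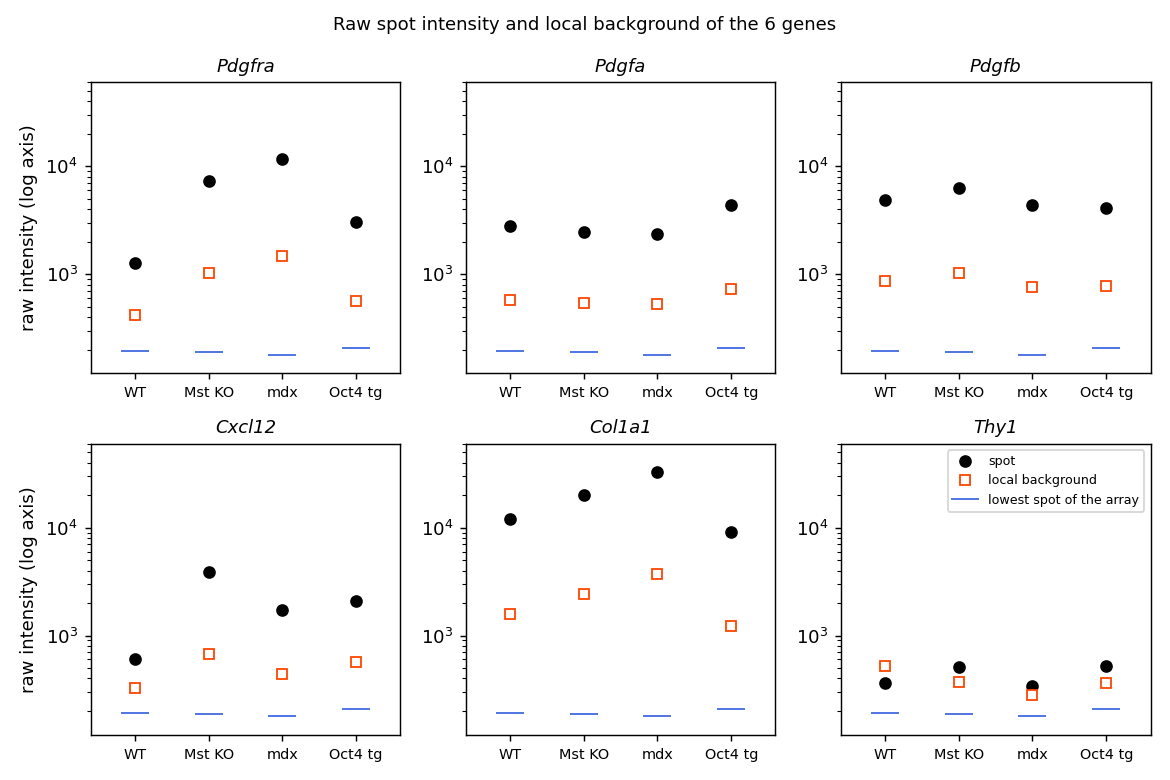
Raw spot intensity (black circles, log axis), local background around the spot (orange squares) and the lowest spot of the array (blue bars) for the 6 genes on the 4 arrays, 1 spot each. The spots of 5 genes stood above their local background on all 4 arrays, from 606 over 329 for Cxcl12 in WT upwards, whereas the Thy1 spot in WT (361) lay below its local background (524).

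Counted together against WT, the 6 genes were high or level, and 0 of them lay 2-fold or more below WT, where 9.72% of all genes with a ratio did in Mst KO, 13.3% in mdx and 8.33% in Oct4 transgenic MDSCs. In Mst KO, 2 of 6 genes, Pdgfra and Cxcl12, were at least 2-fold higher, where 6.94% of the 144 genes with a ratio were. In mdx, 3 of the 5 genes with a ratio, Pdgfra, Cxcl12 and Col1a1, were at least 2-fold higher, where 8.39% of 143 genes were. In Oct4 transgenic MDSCs, 4 of 6 genes, Pdgfra, Cxcl12, Pdgfa and Thy1, were at least 2-fold higher, where 13.2% of 144 genes were, and Thy1 left the count when its absent WT value was raised. The members were picked from these same values, so nothing is read from the counts beside those shares. The 3 comparisons share the WT array, so the low WT values of Pdgfra and Cxcl12 enter each of them. Over the 6 genes the log2 ratio had a median of 0.86 in Mst KO, 1.70 in mdx (5 genes) and 1.12 in Oct4 transgenic MDSCs, and over all genes -0.04, -0.03 and -0.01. Nearest to the threshold lay Pdgfa in Oct4 transgenic MDSCs on the inner side (log2 ratio 1.004) and Thy1 in Mst KO on the outer side (0.96).

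**Figure D3:**
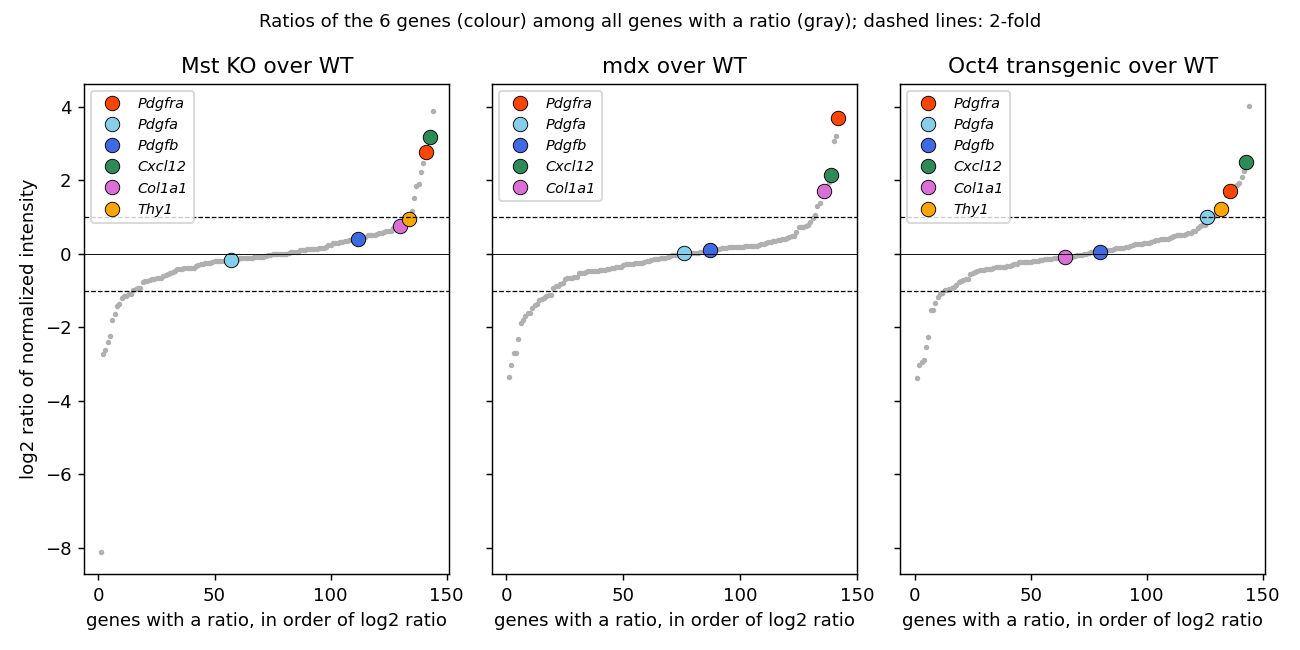
Log2 ratio of normalized intensity to WT for all genes called present on at least 1 of the 2 arrays (gray), in order of their ratio, with the 6 genes in colour and dashed lines at 2-fold, 1 array per MDSC type. Cxcl12 held the second highest ratio in Mst KO (3.19) and in Oct4 transgenic MDSCs (2.51), Pdgfra the second highest in mdx (3.70), and Pdgfb lay near the middle in mdx (0.10) and Oct4 transgenic MDSCs (0.06).

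The scaling of the arrays set how many of all genes counted as higher. With 5 housekeeping genes as the scale, 18 genes were higher and 9 lower in Mst KO, against 10 and 14 as deposited. In Oct4 transgenic MDSCs 11 were higher and 24 lower, against 19 and 12. In mdx, scaling to Gapdh gave 18 higher and 13 lower, against 12 and 19. The same scalings moved the median log2 ratio of all genes to 0.30 in Mst KO, -0.47 in Oct4 transgenic MDSCs and 0.24 in mdx. Such a rescaling moves all genes of an array by the same factor, so the place of the 6 genes among the others kept, and Pdgfra and Cxcl12 stayed past 2-fold in all 3 comparisons under 10 of 10 alternatives. The smallest Pdgfra log2 ratios were 2.74 in Mst KO, 3.43 in mdx and 1.12 in Oct4 transgenic MDSCs, and the smallest Cxcl12 ratios were 3.05, 1.72 and 1.65. Col1a1 stayed past 2-fold in mdx under 10 of 10 alternatives, between 1.64 and 1.98.

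**Figure D4:**
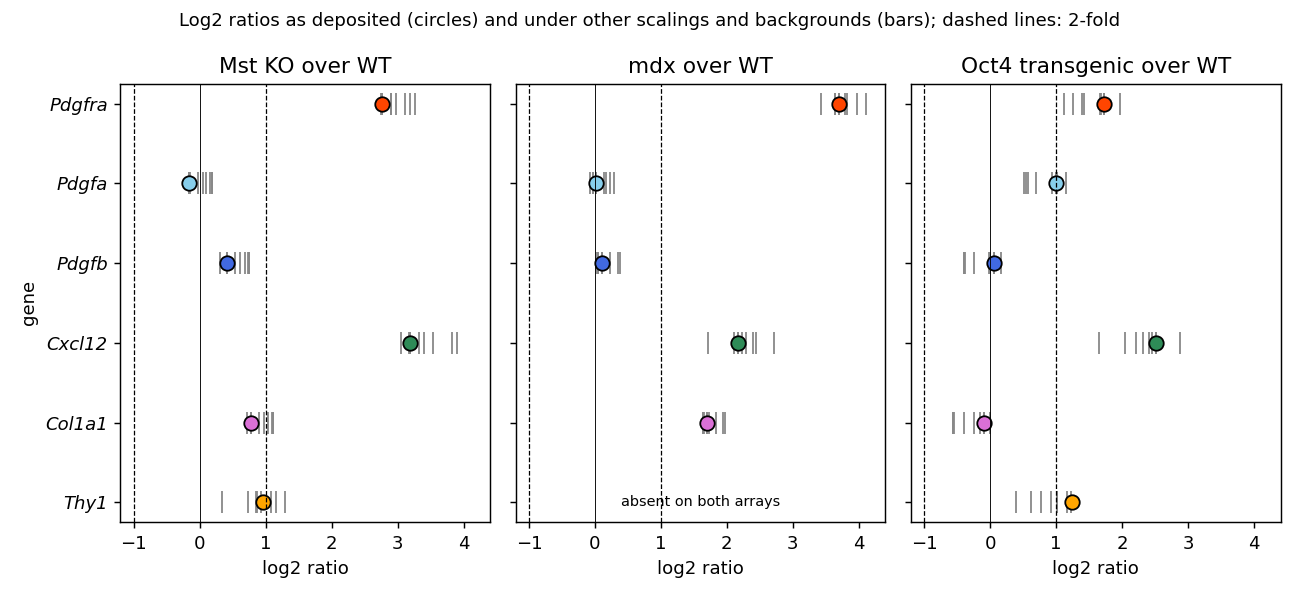
Log2 ratios to WT of the 6 genes as deposited (circles) and under the other scalings and backgrounds (gray bars, up to 10 for each gene), with dashed lines at 2-fold and 1 array per MDSC type. The bars of Pdgfra and Cxcl12 lie above 2-fold in all 3 panels, the bars of Pdgfa in Oct4 transgenic MDSCs fall on both sides of it, and Thy1 has no ratio in mdx because it was absent there and in WT.

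Set against each other, the 3 other MDSC types differed in which of the 6 genes was high. Between mdx and Mst KO, Pdgfra was 1.90-fold and Col1a1 1.91-fold higher in mdx, and Cxcl12 was 2.04-fold higher in Mst KO. Cxcl12 was the only one of the 6 past 2-fold there, where 2.86% of 140 genes were at least 2-fold lower in mdx and 3.57% at least 2-fold higher, and it kept past 2-fold under 8 of 10 alternatives. Between Oct4 transgenic and Mst KO MDSCs, Pdgfa was 2.24-fold higher in Oct4 transgenic and Pdgfra 2.06-fold higher in Mst KO, where 9.86% of 142 genes were at least 2-fold higher and 7.75% at least 2-fold lower in Oct4 transgenic. Pdgfra kept this difference under 10 of 10 alternatives and Pdgfa under 5. Col1a1, 1.83-fold higher in Mst KO as deposited, passed 2-fold under 6 of 10, Cxcl12 under 4 and Pdgfb (1.27-fold) under 3. Between mdx and Oct4 transgenic MDSCs, Pdgfra was 3.93-fold and Col1a1 3.48-fold higher in mdx, under 10 of 10 alternatives for both genes. Past 2-fold there lay 8.76% of 137 genes on the mdx side and 10.2% on the Oct4 transgenic side, among them Thy1 on the latter, whose ratio fell under 2-fold with the absent mdx value raised (1.19-fold).

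Likeness of pattern was taken as the mean absolute difference between the log2 values of 2 genes over the 4 arrays, each gene centred on its own mean and absent values set to at least the dimmest present one. Cdh11, the gene of cadherin-11, an adhesion molecule of mesenchymal and bone-forming cells, was nearest to Pdgfra, with a difference of 0.25 against a median of 1.23 over 143 genes. Its normalized intensity was 7.39 in WT, 65.6 in Mst KO, 68.7 in mdx and 22.3 in Oct4 transgenic MDSCs. Cdh11 was thus low in WT and high in Mst KO and mdx like Pdgfra, with a log2 ratio to WT of 3.15, 3.22 and 1.59 in that order of arrays. Cdkn2b (0.47), which encodes the inhibitor of cyclin-dependent kinases p15, and Cdh6 (0.61), a cadherin gene, came next. Cdkn2b was absent in WT, so its WT value here is the raised one. Cdh11 was also nearest to Cxcl12 (0.52), followed by Cdkn2a (0.54), a gene of cell cycle inhibitors, and Cdkn2b (0.55), its neighbour on the membrane, against a median of 1.01. Col1a1 was nearest to Cdk2 (0.25), a kinase gene of the cell cycle, to Mme (0.25), which encodes the surface peptidase neprilysin and was absent in WT and Oct4 transgenic MDSCs, and to Fgf7 (0.32), a growth factor gene of stromal cells, against a median of 0.71.

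**Figure D5:**
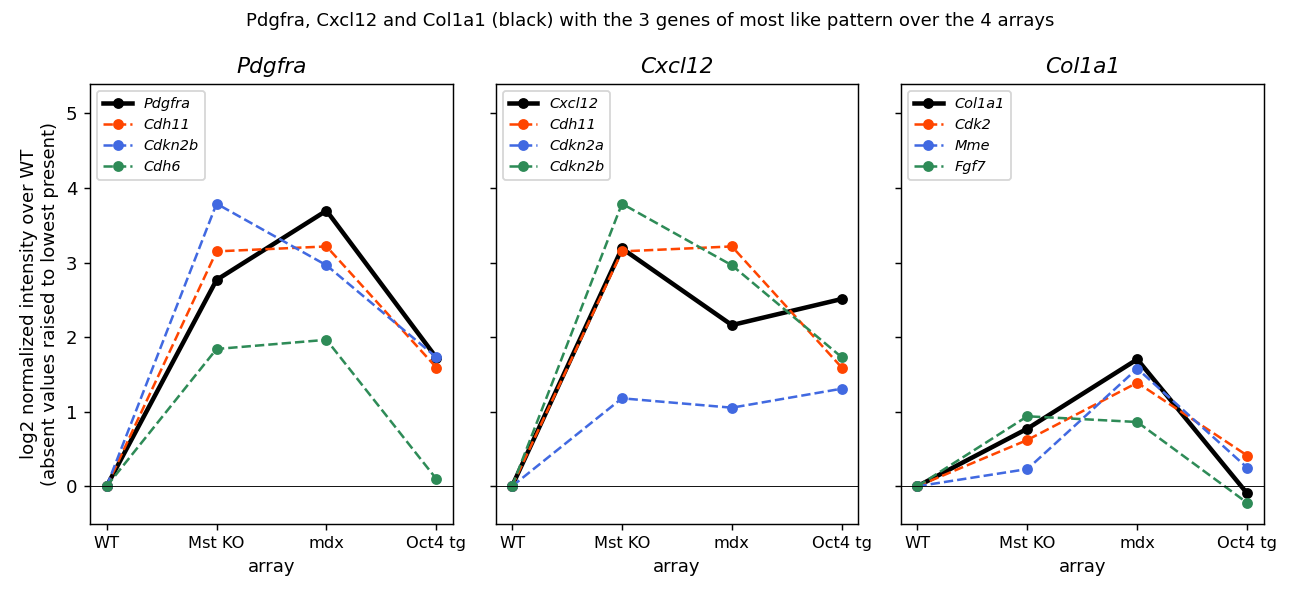
Log2 normalized intensity over WT on the 4 arrays for Pdgfra, Cxcl12 and Col1a1 (black) and the 3 genes with the most like pattern for each (dashed colours), absent values set to at least the dimmest present one, 1 array per MDSC type, with lines joining the points of a gene only to guide the eye. Cdh11 lies close to Pdgfra on all 4 arrays, whereas the Cxcl12 pattern has no gene closer than 0.52.

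Pdgfa was nearest to Rhob (0.12), Abcg2 (0.13), the gene of a drug efflux transporter, and Tubb3 (0.13), against a median of 0.42. Only Abcg2 of these was present on all 4 arrays, at 4.48 in WT, 4.23 in Mst KO, 4.54 in mdx and 7.25 in Oct4 transgenic MDSCs. Pdgfb was nearest to Bmpr1a (0.026), a BMP receptor gene, Adar (0.045) and T (0.053), against a median of 0.26. Thy1 was nearest to Axin1 (0.047), Ncstn (0.075) and Jag1 (0.087), against 0.27, with its absent values raised. Between the 6 genes themselves, Pdgfra differed from Cxcl12 by 0.73 and from Col1a1 by 0.73, and Cxcl12 differed from Col1a1 by 1.14, so each of these 3 genes had at least 3 genes outside the 6 that were closer to it. Both Col1a1 differences lay above the median for Col1a1, 0.71, and Pdgfb (0.57) and Thy1 (0.62) were nearer to Col1a1. All these values rest on 4 arrays.

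Of a list of 18 fibro-adipogenic and stromal genes, 6 were on the array, of which 4 belong to the 6 genes described. The other 2 were Cdh11, at least 2-fold higher than WT on all 3 arrays, and Anpep, an aminopeptidase gene called absent on all 4. The summed normalized intensity of these 6 list genes was 44.5 in WT, 152 in Mst KO, 217 in mdx and 69.8 in Oct4 transgenic MDSCs, a sum made mainly of Col1a1, Cdh11 and Pdgfra and so no separate observation. Of a list of 35 genes of PDGF and other receptor tyrosine kinase signaling, 17 were on the array and 6 present, among them Pdgfra, Pdgfa and Pdgfb. The other present ones were the growth factor genes Igf1 and Fgf7 and the receptor gene Fgfr4. Fgf7 was 4.56 in WT, 8.74 in Mst KO, 8.28 in mdx and 3.91 in Oct4 transgenic MDSCs, and did not reach 2-fold over WT as deposited. Fgfr4, at 1.15 in WT, 1.08 in Mst KO, 1.54 in mdx and 4.14 in Oct4 transgenic MDSCs, was 3.61-fold higher than WT in Oct4 transgenic MDSCs, the array that was also high for Pdgfa. The receptor genes Kit, Flt3, Kdr, Flt1 and Fgfr1 to Fgfr3 and the ligand genes Kitl, Fgf1, Fgf2 and Fgf10 were called absent on all 4 arrays, so Pdgfra and Fgfr4 were the receptor tyrosine kinase genes of the list that were called present.

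Cxcr4, the receptor gene for CXCL12, was called absent on all 4 arrays, at 0.302 in WT, 0.375 in Mst KO, 0.329 in mdx and 0.100 in Oct4 transgenic MDSCs. Besides Cxcl12, the list of chemokine and cytokine genes had 3 genes on the array, of which Lif, a cytokine of the interleukin-6 family, was present (1.45, 0.906, 0.912 and 1.23 in the same order) and its receptor gene Lifr was absent throughout. Of the matrix, cartilage and bone list, 7 of 25 genes were on the array and 4 present. Col10a1, a collagen gene of hypertrophic cartilage, was 1.86 in WT, 2.30 in Mst KO, 2.17 in mdx and 1.41 in Oct4 transgenic MDSCs, and did not reach 2-fold in any comparison with WT. The cartilage genes Col2a1, Col9a1 and Acan were absent on all 4 arrays, and Spp1 was highest in WT, at a normalized intensity of 70.7, with 20.3 in Mst KO, 6.98 in mdx and 12.2 in Oct4 transgenic MDSCs. Col1a1 was thus the 1 gene of that list at least 2-fold higher than WT, and only in mdx as deposited. Of the 11 adipocyte genes 2 were on the array. Pparg, the nuclear receptor of fat cell formation, was 1.13 in WT, 1.75 in Mst KO, 1.49 in mdx and 5.43 in Oct4 transgenic MDSCs, 4.82-fold above WT on the last array and past 2-fold there under 10 of 10 alternatives. Its high array was that of Pdgfa and not that of Pdgfra. Its relative Ppard was absent in WT and Mst KO and present in mdx (1.08) and Oct4 transgenic MDSCs (1.25).

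Markers of other cell types were read beside these values. Of 14 myogenic genes 8 were on the array, 6 were present on each array, and their summed normalized intensity was 78.2 in WT, 21.6 in Mst KO, 18.2 in mdx and 17.9 in Oct4 transgenic MDSCs. WT was thus the highest array for the myogenic sum and the lowest for Pdgfra and Cxcl12. In WT that sum came mainly from Actc1 (39.9) and Myod1 (17.5), so it says little of the other myogenic genes. Myod1, the master factor of myogenesis, the satellite cell cadherin gene Cdh15 and the cardiac actin gene Actc1 were at least 2-fold lower than WT on all 3 other arrays, under 10 of 10 alternatives, while Myf5, Des and Ncam1 were not as deposited. By reverse transcription PCR of further cultures, the paper reported Myod1 and Actc1 as lower in Mst KO than in WT. The part of a different share of myogenic cells in the levels of the 6 genes was not tested. Of the endothelial list 0 of 3 genes on the array were present, with sums between 0.467 and 0.972. Of the hematopoietic list 1 of 6 was present, Cd8a, while Ptprc, which encodes the common leukocyte antigen CD45, was absent on all 4 arrays, with list sums between 2.40 and 4.62. Of the neural list, 9 genes were on the array, and their sums lay between 46.2 and 59.2, of which Sox3 alone gave most (38.6 of 49.1 in WT), so the sums say little of the other 8 genes. In mdx, S100b and Oprs1 lay 2-fold or more below WT. Of the same list, Nes was called present in WT alone and Tubb3 in Oct4 transgenic MDSCs alone. The WT value of Nes, 0.699, lay beside the lowest present value there, 0.697, and below that of each other array. Whether Nes differed between the arrays therefore cannot be told.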

How the data were processed

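The members and gene lists were chosen with earlier results of these data known. Oligonucleotide membrane arrays for mouse stem cell genes were hybridized with biotin-labeled nucleic acid, 1 per MDSC type, and read by chemiluminescence with the GEArray Expression Analysis Suite. The authors deposited raw and normalized intensity values, present or absent calls and a rounded series table. As background the headers give the lowest value of the array, and as calling threshold 1.5. The study methods name housekeeping genes for normalization, but the deposited intensity was recovered to within 1.14e-13 by subtracting the lowest spot and dividing by the average of the 144 spots of middle rank after that subtraction. Genes counted as present if 1 or more spots were, repeated spots were averaged, and a gene needed a present call on 1 or both arrays compared to have a ratio, with 2-fold as threshold. For lower limits of a fold, absent values were set to no less than the dimmest present gene.

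Pairs were compared without a test, since each MDSC type had 1 array. The genes named are the 6, the 3 of most like pattern for each, and list genes past 2-fold in a comparison with WT. Piwil2 and the other membrane neighbours, Igf1, Lif, Lifr, Cxcr4, Col10a1, Myf5, Des, Ncam1, Cd8a, Sox3 and the list genes called absent were named after their values were seen. Symbols were checked through accessions in RefSeq, where 257 of 268 genes matched and the 6 genes kept their symbols, and promoter sequences were found for 3 of the 6. The counting and likeness steps were tested on simulated data. Values were recomputed with other scalings (the median of genes present on all arrays, Gapdh, 5 housekeeping genes, quantiles), without background or with a local one, with 2 floors, and from the series table, which makes 10 alternatives. The 2 floors and the series table leave a gene present on both arrays at or near its deposited ratio. Counts were also taken for genes present on both arrays, without the filter, and at 1.5-fold and 3-fold. Of these alternatives, 12 were planned and 2 were added after the data were seen (a local background with 5 housekeeping genes, and a floor at the negative-control spots). Python 3.11.15, numpy 2.4.6, pandas 2.3.3 and matplotlib 3.10.9 were used.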

Additional observations from a re-analysis of the deposited data

How the results depend on the processing

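The count of the 6 genes at least 2-fold higher than WT stayed at 3 in mdx under all 14 alternatives. In Mst KO it was 2 as deposited and 4 with scaling to 5 housekeeping genes or with a threshold of 1.5-fold, where Col1a1 and Thy1 joined. It was 3 under 5 others, with Thy1 under median and Gapdh scaling, and with Col1a1 without background and under both local-background settings. In Oct4 transgenic MDSCs it was 4 as deposited. It was 3 under 4 alternatives, and 2, Pdgfra and Cxcl12, with scaling to Gapdh, with scaling to 5 housekeeping genes (with the lowest spot, no background or, chosen after seeing the data, the local background subtracted), and with a threshold of 3-fold. The cause was not tested. Of 166 recomputed log2 ratios of single genes, 73 moved by no more than the spot spread of 0.08 and 93 by more, and 0 of those past 2-fold changed sign. Many of the 73 came from the 2 floors and the series table, which cannot move genes present on both arrays beyond rounding. The split is therefore no measure of stability. Subtracting the local background left Thy1 without a value in WT. Thy1 log2 ratios to WT ran from 0.34 to 1.30 in Mst KO and from 0.40 to 1.22 in Oct4 transgenic MDSCs. The number of arrays limits the precision, and Thy1 on all 4 arrays and Cxcl12 in WT stood at less than 2 times their local background. No paired analysis was possible because each MDSC type had 1 array.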
